A study of Arabidopsis thaliana with 35 samples.

Results

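The genes described here encode 10 enzymes and enzyme-like proteins of flavonoid and anthocyanin synthesis in *Arabidopsis thaliana* shoots. They are 10 of the 27417 genes in the count table and were chosen by their AGI identifiers with values of these libraries already known, so their levels and changes are given as a description with no test. They were *TT4* (AT5G13930), *CHI* (AT3G55120), *CHIL* (AT5G05270), *F3H* (AT3G51240), *TT7* (AT5G07990), *DFR* (AT5G42800), *LDOX* (AT4G22880), *UF3GT* (AT5G54060), AT4G14090 and *AT5MAT* (AT3G29590).

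Per the labels, wild-type plants of the Col-0 accession spent 9 days on MS medium and 5 days on ceramic soil, and their pots then stood for 3 days in 10 mM ethanol or in water before watering ended. The study's methods give another number of days on the medium than the labels, which were followed here. The 35 shoot libraries, 5 in each of 7 groups, came from plants before the pre-treatment and from ethanol-treated and water-treated plants harvested 0, 10 or 13 days into the drought (DAD, days after drought). All groups shared the genotype and the soil. No group was watered up to 10 or 13 DAD, so drought and plant age cannot be told apart in changes over time. The study's methods call its replicates biological, and neither they nor the labels say whether those of a group came from separate pots, so p-values measure only the spread between these libraries, part of which may be technical. Levels are the authors' normalized read counts, which are not scaled for gene length, and they are therefore compared between groups and not between genes.

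Flavonoids are built from phenylpropanoid precursors. Chalcone synthase and chalcone isomerase make the skeleton, hydroxylases modify it, and dihydroflavonol reductase and leucoanthocyanidin dioxygenase convert it to the coloured anthocyanidins, to which transferases add sugars and acyl groups. In Arabidopsis shoots the late steps are known to be switched on by complexes of MYB, bHLH and WD40 proteins, and the pigments are known to accumulate under drought, strong light and high sugar.

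Library totals ranged from 3589540 to 13440389 counts, and libraries of a group correlated over genes at 0.972 to 0.989 (Pearson's r of log2 CPM). The summed normalized counts of 5 leaf marker genes for photosynthesis lay between 348497 and 491898 in the groups before the pre-treatment and at 0 DAD. At 13 DAD they lay between 18818 and 55363 in ethanol-treated plants, against 14513 and 20792 in water-treated plants. Of 5 root markers, *EXPA7*, *EXPA18*, *COBL9* and *CASP1* did not pass 16.4 normalized counts in any library, while *PYK10* lay between 84.3 and 239.8 in ethanol-treated plants and between 38.9 and 71.0 in water-treated plants at 13 DAD. The summed counts of 5 flower markers lay between 11.8 and 43.1 in ethanol-treated plants, against 9.46 and 64.8 in water-treated plants at 13 DAD. One of them, *SEP3*, was called higher in ethanol-treated plants then (log2 fold change 1.57 ± 0.54, edgeR adjusted p = 0.0348). So were *PYK10* (1.79 ± 0.263, adjusted p = 0.000132) and 2 of the 5 leaf markers, *LHCB2.1* and *RCA*. The call of *LHCB2.1*, at 1.26 ± 0.334, was lost at 0.83 without ethanol replicate 3. *SEP3* lay between 7.88 and 28.1 normalized counts in ethanol-treated plants, against 1.26 and 15.5 in water-treated plants. All 5 seed markers stayed under 10 normalized counts in every library. The part of these shifts in the values below was not tested, and in whole shoots fewer cells of a type and less RNA per cell cannot be told apart.

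In the RefSeq annotation of TAIR10.1, the 10 genes lay on chromosomes 3, 4 and 5. None overlapped another gene on its own strand, and the authors' counting used the strand. One near-identical stretch was found, 321 bases at 96.0% identity between *LDOX* and AT4G22870, and AT4G22870 had at most 2 reads in any library. A window of 250 bases before the annotated start of each gene was searched on both strands for motifs bound by bHLH, bZIP and MYB proteins. The G-box, CACGTG, was found in 5 of the 10 windows and in 6.49% of 27437 windows of the same length before protein-coding genes. The ACGT core, which the G-box contains, was found in 5 of the 10 and in 44.1% of all windows. The E-box, CANNTG, which also covers the G-box, was found in 8 of the 10 and in 55.3% of all windows. ACCTACC was found in 0 of the 10 and in 1.16% of all windows, and ANCNNCC, a looser MYB motif, in 9 of the 10 and in 48.8%. The 5 windows with a G-box follow because the G-box was the motif whose share among the 10 genes was furthest from its share of all windows, and *LDOX* is shown as the gene without a G-box or an E-box whose profile was closest to that of all 10. They are written 5′ to 3′ on the strand of the gene, end at the base before its start, and have the G-box in capitals.
TT4, chr5:4488226-4488475, plus strand: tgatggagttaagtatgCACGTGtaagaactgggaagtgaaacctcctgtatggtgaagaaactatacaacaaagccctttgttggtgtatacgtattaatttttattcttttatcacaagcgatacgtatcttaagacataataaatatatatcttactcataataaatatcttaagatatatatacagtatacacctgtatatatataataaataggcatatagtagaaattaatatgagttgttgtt
CHIL, chr5:1563036-1563285, plus strand: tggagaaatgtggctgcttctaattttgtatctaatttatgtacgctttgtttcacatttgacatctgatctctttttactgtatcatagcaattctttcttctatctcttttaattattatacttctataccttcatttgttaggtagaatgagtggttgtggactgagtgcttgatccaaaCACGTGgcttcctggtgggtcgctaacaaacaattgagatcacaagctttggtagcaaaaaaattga
F3H, chr3:19024942-19025191, plus strand: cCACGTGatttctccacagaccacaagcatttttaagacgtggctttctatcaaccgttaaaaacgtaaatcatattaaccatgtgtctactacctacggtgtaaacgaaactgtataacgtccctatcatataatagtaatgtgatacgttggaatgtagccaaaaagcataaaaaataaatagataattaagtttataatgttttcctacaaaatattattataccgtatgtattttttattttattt
DFR, chr5:17166033-17166282, minus strand: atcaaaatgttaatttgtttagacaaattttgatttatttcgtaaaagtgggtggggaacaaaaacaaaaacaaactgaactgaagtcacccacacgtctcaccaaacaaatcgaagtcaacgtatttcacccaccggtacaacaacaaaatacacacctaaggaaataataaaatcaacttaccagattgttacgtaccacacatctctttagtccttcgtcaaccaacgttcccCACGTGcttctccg
UF3GT, chr5:21938397-21938646, minus strand: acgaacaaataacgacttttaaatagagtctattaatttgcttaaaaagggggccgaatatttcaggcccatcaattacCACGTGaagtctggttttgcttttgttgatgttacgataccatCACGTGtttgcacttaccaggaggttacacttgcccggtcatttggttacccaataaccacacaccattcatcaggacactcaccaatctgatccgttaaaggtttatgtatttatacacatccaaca
LDOX, chr4:12006210-12006459, minus strand: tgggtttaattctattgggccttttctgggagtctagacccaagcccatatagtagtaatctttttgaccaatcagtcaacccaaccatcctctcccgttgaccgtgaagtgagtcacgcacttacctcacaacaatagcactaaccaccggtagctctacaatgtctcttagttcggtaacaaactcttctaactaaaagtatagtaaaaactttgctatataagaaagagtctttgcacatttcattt

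**Figure D1:**
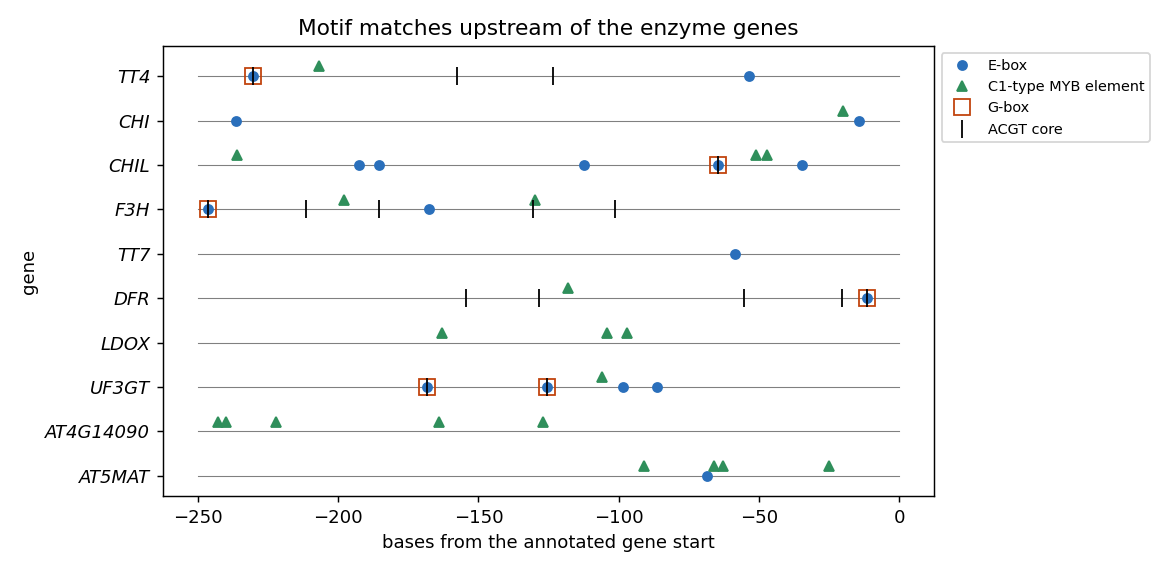
Motif matches in the 250 bases before the annotated start of the 10 enzyme genes, one line per gene, with the distance from the start in bases on the horizontal axis. Open squares are G-boxes, circles E-boxes, bars ACGT cores and triangles the looser MYB motif. G-boxes stood in 5 of the 10 windows, with 2 in that of *UF3GT*, and at no shared distance from the start.

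The G-box began 233 bases before the start in *TT4*, 249 in *F3H*, 67 in *CHIL* and 14 in *DFR*. *UF3GT* had G-boxes beginning 171 and 128 bases before the start. A match is a stretch of letters and not a shown binding site.

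The question of the 13 DAD comparison was how the 10 genes stood late in the drought after each pre-treatment. All 10 were higher in ethanol-treated plants, with log2 fold changes from 1.39 in *CHI* to 3.48 in *UF3GT* and a median of 2.97, against a median of 0.04 over the 15394 genes tested. The 10 genes together took 0.754% ± 0.237 of all counts in ethanol-treated plants, against 0.105% ± 0.0457 in water-treated plants (SD, n = 5 each). For all 10 genes the lowest ethanol library lay above the highest water library, which held for 9.51% of all genes tested. All 10 also passed the threshold used for calls here, a false discovery rate under 0.1 and a 2-fold change, as did 8.79% of all genes in that direction and 4.78% in the other. *AT5MAT* passed the filter on low counts through the ethanol-treated libraries, where it was high. These counts and calls, and those of the 10 genes in the comparisons below, describe genes chosen with the values known. Nothing is read from them.

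**Figure D2:**
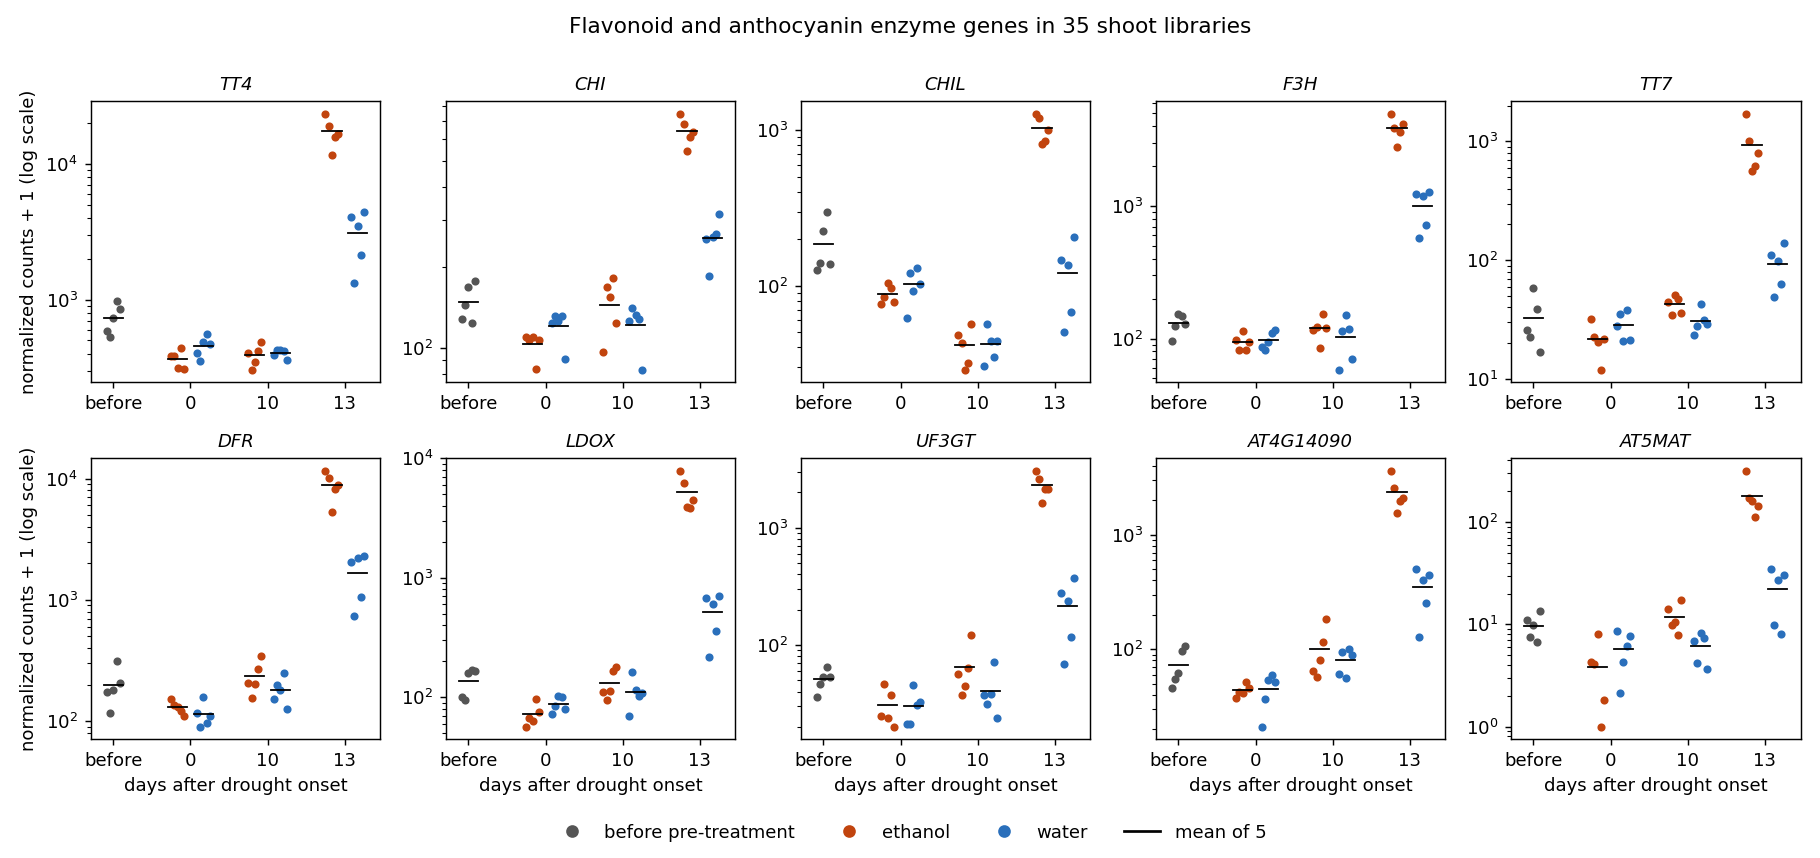
Normalized counts plus 1 (log axis) of the 10 enzyme genes in the 35 libraries, by days after the onset of drought. Points are libraries and bars the mean of 5, for ethanol-treated plants (orange), water-treated plants (blue) and plants before the pre-treatment (grey). For each of the 10 genes the ethanol libraries at 13 DAD lie above the 30 other libraries, as for 1.71% of all genes tested, *TT4* at 11693 to 23437.

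Among the early steps, *TT4* (chr5:4488476-4490264, 2 exons) encodes chalcone synthase, the entry enzyme of the pathway. It had 23437, 19064, 11693, 15820 and 16502 normalized counts in the 5 ethanol-treated libraries, against 4070, 1324, 3504, 2114 and 4452 in the 5 water-treated libraries at 13 DAD. Its log2 fold change was 2.53 ± 0.332 (SE), a 5.79-fold difference. Replicate 1 was the highest ethanol library, and replicates 2 and 4 were the lowest water libraries.

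*CHI* (chr3:20430059-20431597, 4 exons) encodes chalcone isomerase, which closes the ring of the chalcone. It had 747.6, 681.5, 540.9, 611.7 and 639.5 normalized counts in ethanol-treated plants, against 254.0, 184.5, 259.0, 264.9 and 314.3 in water-treated plants. Its log2 fold change of 1.39 ± 0.144 was the smallest of the 10, and its libraries varied least within each group.

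*CHIL* (chr5:1563286-1565324, 5 exons) encodes a chalcone isomerase-like protein that has no isomerase activity of its own and promotes flavonoid production. It had 1281, 1196, 816.6, 854.8 and 998.5 normalized counts in ethanol-treated plants, against 144.5, 49.3, 135.5, 66.2 and 205.0 in water-treated plants. It differed by 3.13 ± 0.352 on the log2 scale. Ethanol-treated plants at 13 DAD lay above the range before the pre-treatment, 124.7 to 298.5, and water-treated plants overlapped it.

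*F3H* (chr3:19025192-19026872, 3 exons) encodes flavanone 3-hydroxylase. It had 4977, 3875, 2774, 3622 and 4124 normalized counts in ethanol-treated plants, against 1222, 569.9, 1183, 714.4 and 1274 in water-treated plants. At a log2 fold change of 2.01 ± 0.24, only *CHI* differed less.

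*TT7* (chr5:2560328-2563137, 4 exons) encodes flavonoid 3′-hydroxylase, which sets the hydroxylation of the B ring. It had 1713, 997.5, 557.9, 620.3 and 790.8 normalized counts in ethanol-treated plants, against 109.5, 48.0, 97.1, 62.0 and 139.8 in water-treated plants. It differed by 3.4 ± 0.403 on the log2 scale, with replicate 1 at 1.83 times the ethanol mean.

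At the late steps, *DFR* (chr5:17164093-17166032, 6 exons) encodes dihydroflavonol 4-reductase, the first enzyme on the way to anthocyanidins alone. It had 11622, 10130, 5341, 8211 and 8883 normalized counts in ethanol-treated plants, against 2058, 731.6, 2191, 1050 and 2315 in water-treated plants. Here the log2 fold change was 2.45 ± 0.35.

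*LDOX* (chr4:12004726-12006209, 2 exons) encodes leucoanthocyanidin dioxygenase, which forms the coloured anthocyanidin. It had 7866, 6233, 3931, 3805 and 4431 normalized counts in ethanol-treated plants, against 671.7, 216.1, 605.8, 359.3 and 704.3 in water-treated plants. With a log2 fold change of 3.41 ± 0.369, it was among the 3 largest differences.

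Of the decorating enzymes, *UF3GT* (chr5:21936746-21938396, 1 exon) encodes a glycosyltransferase that adds a sugar to anthocyanins. It had 3062, 2592, 1624, 2142 and 2125 normalized counts in ethanol-treated plants, against 274.5, 68.2, 235.2, 115.5 and 372.1 in water-treated plants. Its log2 fold change, 3.48 ± 0.434, was the largest of the 10.

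AT4G14090 (chr4:8122188-8123835, 1 exon) is annotated as an anthocyanidin 5-O-glucosyltransferase. It had 3643, 2578, 1565, 1966 and 2101 normalized counts in ethanol-treated plants, against 505.6, 127.6, 402.1, 250.8 and 444.7 in water-treated plants. A log2 fold change of 2.82 ± 0.385 separated the treatments.

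*AT5MAT* (chr3:11398592-11400332, 1 exon) encodes the malonyltransferase that acts on the sugar added by that enzyme. It had 317.5, 172.4, 160.2, 111.3 and 142.2 normalized counts in ethanol-treated plants, against 33.7, 8.85, 26.4, 7.05 and 29.4 in water-treated plants. Its log2 fold change was 3.11 ± 0.407, and the water-treated libraries held as few as 5 reads.

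Set against the *DFR* count of the same library, *LDOX* stood at 46.3% to 73.6% in ethanol-treated plants, against 27.6% to 34.2% in water-treated plants. *CHIL*, *TT7* and *UF3GT* likewise had the higher ratio in ethanol-treated plants without overlap. *CHI*, at 6.43% to 10.1% in ethanol-treated plants against 11.8% to 25.2% in water-treated plants, and *F3H*, at 38.3% to 51.9% against 54.0% to 77.9%, had the lower ratio there. For *TT4*, AT4G14090 and *AT5MAT* the ratios of the treatments overlapped, *TT4* having a median of 193% in ethanol-treated plants, against 192% in water-treated plants. These ratios describe chosen genes and were not tested. How often the ratio of any gene to *DFR* was apart between the treatments was not counted.

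Leaving out any single library at 13 DAD kept every one of the 10 log2 fold changes between 1.27 and 3.76. Within the groups, most of the 10 genes had the same libraries at the top and at the bottom. Ethanol replicate 1 was the highest library for 10 of the 10 genes, as for 19.4% of all genes tested, and ethanol replicate 3 the lowest for 8, as for 20.6%. Water replicates 2 and 4 lay below the other 3 water libraries for 9 of the 10 genes, *CHI* being the exception, as for 10.7% of all genes. Averaged over the 10 genes, water replicate 2 stood at 0.463 and water replicate 5 at 1.44 of the group mean, while the ethanol libraries ran between 0.722 and 1.43. Ethanol replicate 3 also had the highest leaf marker sum of its group, 55363 against 34510 in replicate 1, and the part of this in the order of the libraries was not tested. In the water libraries the leaf marker sum was 18487 in replicate 2 and 17526 in replicate 5.

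**Figure D3:**
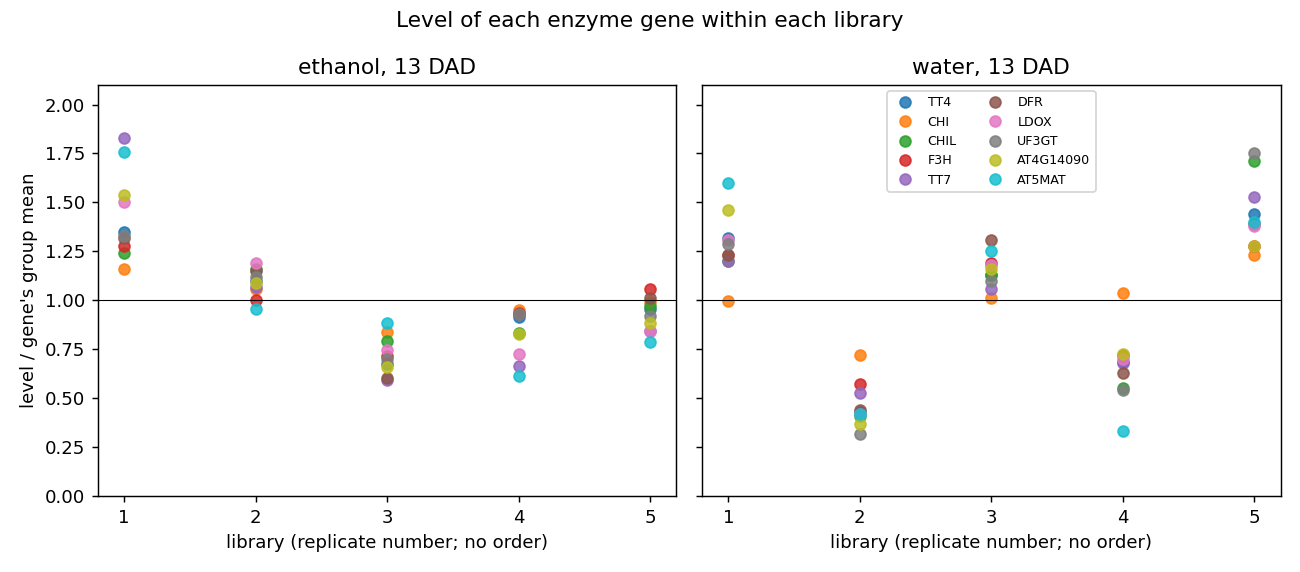
Level of each of the 10 enzyme genes in each 13 DAD library, divided by the mean of that gene in its group, for ethanol-treated plants (left) and water-treated plants (right). Points are genes and the line marks the group mean. The genes averaged 1.43 in ethanol replicate 1 and 0.463 in water replicate 2, and they spread within a library, in water replicate 4 by as much as 0.334 to 1.04.

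Earlier in the drought the treatments overlapped. At 10 DAD the log2 fold changes of the 9 genes with enough counts ran from -0.04 in *TT4* to 0.67 in *UF3GT*, with a median of 0.26 and SEs of 0.124 to 0.341. Of the 9, 0 were called, against 0.068% of all genes, and the libraries of the treatments overlapped for all 10 genes, where 1.88% of all genes did not overlap. At 0 DAD, directly after the pre-treatment, the values ran from -0.36 in *TT7* to 0.20 in *DFR*, with a median of -0.21. Again 0 of 9 were called, against 0.0986% of all genes, and all 10 overlapped, where 2.53% of all genes did not. *AT5MAT*, at most 16.3 normalized counts in these libraries, was too low to be fitted.

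Before the pre-treatment *TT4* lay between 530.8 and 980.4 normalized counts. All 5 ethanol libraries at 0 DAD lay below this range for *TT4*, at 308.5 to 438.7, and likewise for *CHI* and *CHIL*, as 8.99% of all genes did. Water-treated libraries at 0 DAD overlapped plants before the pre-treatment for all 10 genes, *TT4* lying between 350.8 and 557.4, where 11.1% of all genes did not overlap. Whether the treatments differed in this respect was not tested.

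Between 0 and 10 DAD the genes differed in direction and size. In ethanol-treated plants the log2 fold changes of 10 over 0 DAD ran from -1.08 to 1.22 with a median of 0.86, and in water-treated plants from -1.27 to 0.91 with a median of 0.16. The libraries of ethanol-treated plants at 10 DAD lay above those at 0 DAD for *TT7*, *DFR* and AT4G14090 and below them for *CHIL*, 4 of the 10 genes, where 31.7% of all genes did not overlap. In water-treated plants *CHIL* alone did not overlap, as 30.9% of all genes did not. *CHIL* was the one gene that was lower at 10 DAD in both, by log2 fold changes of -1.08 ± 0.206 in ethanol-treated plants, against -1.27 ± 0.226 in water-treated plants. In ethanol-treated plants AT4G14090, at 1.22 ± 0.279, and *UF3GT*, at 1.11 ± 0.323, passed the 2-fold threshold with *CHIL*, so that 3 of 9 were called against 17.6% of all genes. Without ethanol replicate 5 of 10 DAD, which held 183.2 normalized counts of AT4G14090 and 121.3 of *UF3GT*, these values were 0.92 and 0.78 and neither was called. The call for *UF3GT* was also lost without ethanol replicate 5 of 0 DAD, and that for *CHIL* in ethanol-treated plants without ethanol replicate 3 or 4 of 10 DAD or with scaling by library size only, its values reaching -0.97 when single libraries were left out. In water-treated plants 1 of 9 was called, against 16.8% of all genes.

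The step from 10 to 13 DAD had the larger medians of the 2 steps between neighbouring times. In ethanol-treated plants all 10 were higher at 13 DAD, by log2 fold changes of 2.16 ± 0.166 in *CHI* to 5.48 ± 0.229 in *TT4*, with a median of 4.86. The 13 DAD libraries lay above the 10 DAD libraries for all 10 genes, as for 20.1% of all genes, and all 10, *AT5MAT* having passed the filter through its 13 DAD libraries, were called higher, as were 12.9% of all genes, while 17.9% were called lower. Among water-treated plants the 9 genes fitted had log2 fold changes of 1.03 ± 0.169 in *CHI* to 3.24 ± 0.314 in *F3H*, with a median of 2.18. All 9 were called higher, as were 17.9% of all genes, with 25.6% called lower, and the libraries did not overlap for 7 of the 10, as for 27.9% of all genes. *CHIL*, *UF3GT* and *AT5MAT* overlapped, *UF3GT* having 68.2 in water replicate 2 at 13 DAD and 70.3 in water replicate 4 at 10 DAD. The call for *CHI* in water-treated plants sat at the threshold, and it was lost at 0.95 without replicate 5 of either time and at 0.99 with 2 other settings.

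The 10 genes ranked differently in this step of each treatment. In water-treated plants *F3H*, *DFR* (3.16 ± 0.365) and *TT4* (2.90 ± 0.304) had the largest values and *CHIL* (1.53 ± 0.335) and *TT7* (1.56 ± 0.288) the smallest after *CHI*. In ethanol-treated plants *CHIL* and *TT7* stood at 4.68 ± 0.204 and 4.50 ± 0.323, beside 5.04 ± 0.196 in *F3H* and 5.25 ± 0.269 in *DFR*. The difference between the steps, the ethanol step minus the water step, was 3.13 ± 0.446 in *LDOX*, 3.11 ± 0.438 in *CHIL* and 2.92 ± 0.466 in *TT7*, and 1.77 ± 0.359 in *F3H* and 1.11 ± 0.236 in *CHI*. The 9 genes fitted in both steps were called higher in this difference, as were 8.61% of all genes, with 4.06% called lower. *AT5MAT* was left out of this count because it passed the filter only through the ethanol-treated libraries of 13 DAD. For *CHI* the call was lost at 0.99 without water replicate 2 of 13 DAD or without ethanol replicate 1 of 10 DAD. This difference and the 13 DAD comparison share their 13 DAD libraries and are not separate evidence.

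**Figure D4:**
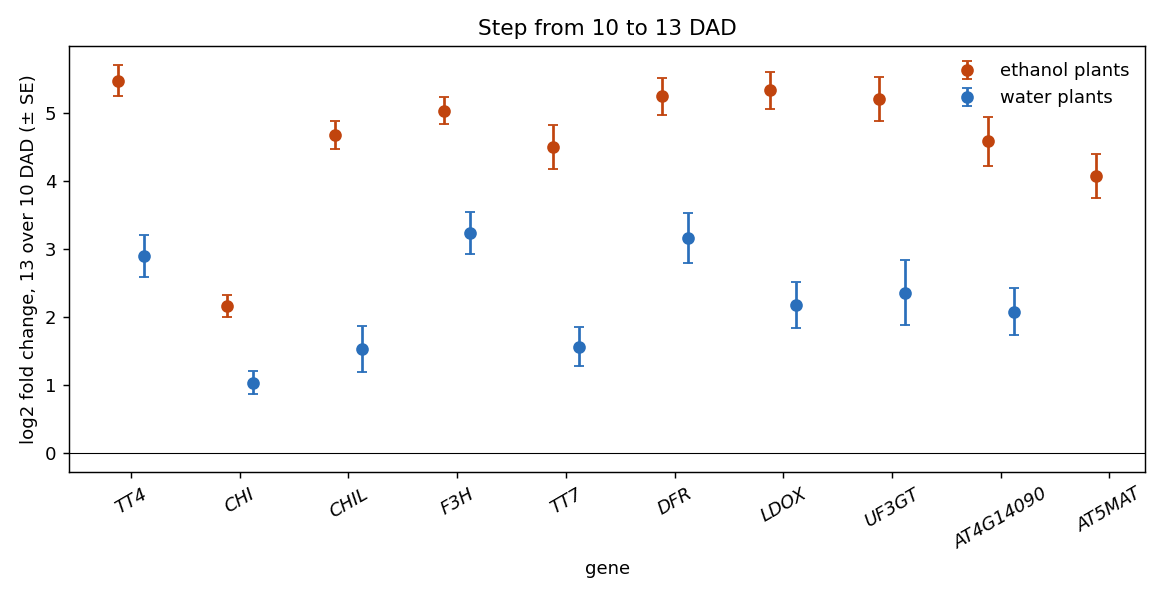
Log2 fold change of 13 over 10 DAD (± SE) for each enzyme gene in ethanol-treated plants (orange) and water-treated plants (blue). The ethanol values run from 2.16 to 5.48 and the water values from 1.03 to 3.24, and *AT5MAT* has no water value because its counts were too low to be fitted.

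Over all 7 groups, ethanol-treated plants at 13 DAD had the highest mean for each of the 10 genes, as for 15.7% of all genes tested, and water-treated plants at 13 DAD the next for 9, an order that 9.57% of all genes had. The exception was *CHIL*, whose mean before the pre-treatment, 184.8 ± 75.0, exceeded the 120.1 ± 63.2 of water-treated plants on day 13 (SD, n = 5 each) by less than the spread. *TT4*, *CHI*, *F3H*, *DFR* and *LDOX* lay above all 25 earlier libraries in water-treated plants at 13 DAD, as did 22.3% of all genes. Among the earlier groups, *F3H*, *LDOX*, *UF3GT* and *AT5MAT* overlapped in each comparison made above, and the other 6 genes were apart in at least 1. The share of all genes apart in at least 1 was not counted. In ethanol-treated plants between 0 and 10 DAD alone it was 31.7%, so nothing is read from this count. *DFR* lay between 89.3 and 344.2 in the 25 libraries before 13 DAD, with ethanol-treated plants at 10 DAD at 153.6 or more and those at 0 DAD at 151.6 or less.

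Genes of the same pathway that were not among the 10 were tested with edgeR's quasi-likelihood test, with p-values adjusted by Benjamini-Hochberg over all genes. Their lists, too, were drawn up with earlier results of these libraries known, so the counts are not independent support. Of 51 such genes, 38 had enough counts at 13 DAD, and in ethanol-treated plants 18 were called higher, 2 lower and 18 not at all. Of all genes tested at 13 DAD, 8.79% were called higher and 4.78% lower, and these shares also apply to the counts by list below. The median log2 fold change of the 38 was 0.80, against 0.04 over all genes tested. At 10 DAD edgeR called 0 of 37, against 0.068% of all genes, and at 0 DAD 0 of 41, against 0.0986%. DESeq2 called 0 at each time as well. With so few genes called at all, these counts say little about the pathway. At each time 8 had an unadjusted edgeR p under 0.05. Of all genes, 1436 of 16171 did so at 10 DAD and 1865 of 17242 at 0 DAD.

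At the phenylpropanoid entry, 4 of 11 genes were called higher at 13 DAD. *PAL1* and *PAL2*, phenylalanine ammonia-lyases, had log2 fold changes of 1.75 ± 0.22 (adjusted p = 8.55e-05) and 1.83 ± 0.25 (adjusted p = 0.00019). *4CL3*, a 4-coumarate:CoA ligase tied to flavonoids, had 2.83 ± 0.364 (adjusted p = 7.51e-05). *4CL2* was called at 1.18 ± 0.3 (adjusted p = 0.00696), a call lost at 0.94 without ethanol replicate 3 and at 0.96 without water replicate 4. *C4H*, cinnamate 4-hydroxylase, the step between them, was not called at -0.17 ± 0.123 (adjusted p = 0.316). It had 2822, 2531, 2031, 2790 and 2857 normalized counts in ethanol-treated plants, against 3019, 3235, 2947, 2666 and 3337 in water-treated plants. It rose from 10 to 13 DAD under each treatment, by 2.33 ± 0.16 in ethanol-treated plants (adjusted p = 2.14e-08) and 2.84 ± 0.121 in water-treated plants (adjusted p = 3.82e-14).

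Steps beside the 10 in anthocyanin synthesis and storage had 5 of 7 genes called higher. *TT19*, a glutathione S-transferase that carries anthocyanins toward the vacuole, had 8885, 7802, 4906, 6570 and 7279 normalized counts in ethanol-treated plants, against 2392, 959.1, 2019, 1055 and 2480 in water-treated plants. Its log2 fold change was 2.04 ± 0.293 (adjusted p = 0.000393), and replicates 2 and 4 were again the low water libraries. The acyltransferase family genes AT1G03495 and AT1G03940 had 3.06 ± 0.496 (adjusted p = 0.00164) and 2.05 ± 0.309 (adjusted p = 0.000694). *SCPL10* (1.48 ± 0.17) and *UGT84A2* (1.39 ± 0.151), which makes sinapoylglucose, were also called, and *DTX35* (-0.45 ± 0.117) and *BGLU10* (0.17 ± 0.0993) were not.

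The flavonol branch, which competes for the same dihydroflavonols, had 2 of 8 genes called. *FLS1*, flavonol synthase, stayed under the 2-fold threshold at 0.80 ± 0.305 (adjusted p = 0.0548), with 34.8, 28.7, 36.8, 33.5 and 24.9 normalized counts in ethanol-treated plants, against 13.2, 25.3, 18.7, 25.4 and 12.6 in water-treated plants. The sugar transferases *UGT78D2*, which acts on both flavonols and anthocyanidins, and *UGT78D1*, a flavonol rhamnosyltransferase, were called at 1.83 ± 0.159 (adjusted p = 1.5e-06) and 2.29 ± 0.366 (adjusted p = 0.000233). *UGT78D1* ran against the 10 genes in time, falling from 10 to 13 DAD by 1.84 on the log2 scale in ethanol-treated plants (adjusted p = 3.65e-06) and by 4.23 in water-treated plants (adjusted p = 1.68e-10). None of 4 genes for proanthocyanidins, the tannins of the seed coat, had enough counts to be fitted.

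**Figure D5:**
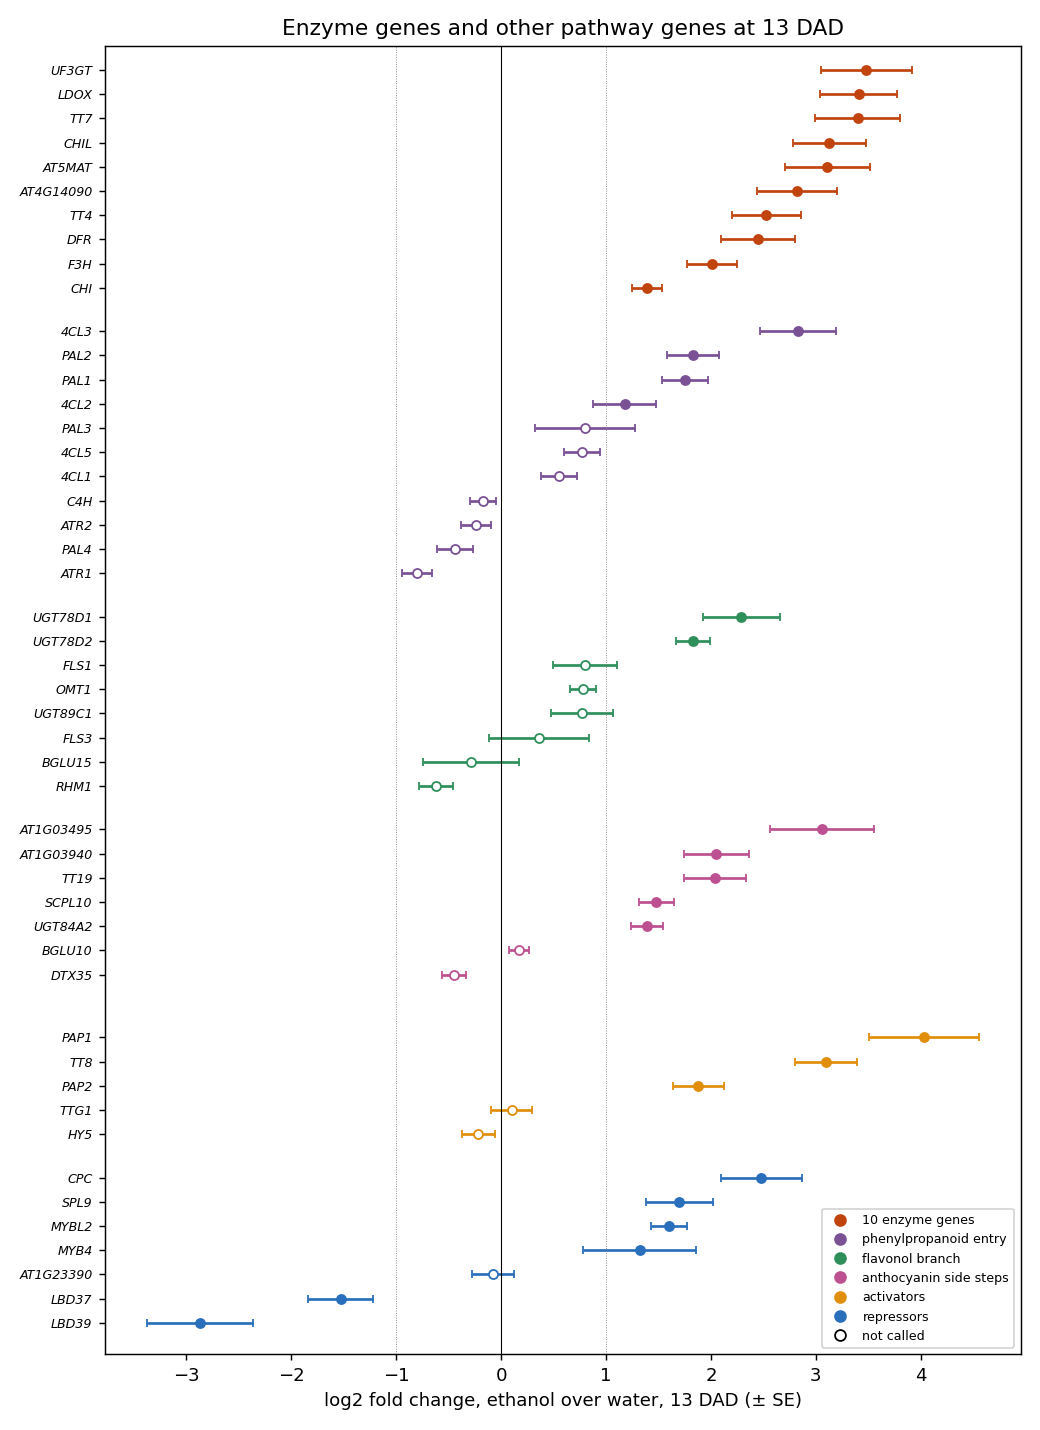
Log2 fold change of ethanol-treated over water-treated plants at 13 DAD (± SE) for the 10 enzyme genes and the other pathway genes with enough counts, by list. Filled points passed a false discovery rate under 0.1 and a 2-fold change, open points did not, and dotted lines mark the 2-fold change. The 10 enzyme genes lie between 1.39 and 3.48 and the other genes between -2.87 and 4.03.

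Among regulators that activate the pathway, 3 of the 5 fitted were called higher at 13 DAD. *PAP1*, the MYB factor that drives anthocyanin genes, had 2076, 1439.7, 1322, 537.1 and 786.9 normalized counts in ethanol-treated plants, against 121.6, 24.0, 57.1, 64.8 and 121.9 in water-treated plants. Its log2 fold change was 4.03 ± 0.525 (adjusted p = 0.000524), above that of each of the 10. From 10 to 13 DAD *PAP1* rose by 1.54 ± 0.421 in ethanol-treated plants (adjusted p = 0.0102) and fell by 1.77 on the log2 scale in water-treated plants (adjusted p = 0.00954), and the difference was 3.27 ± 0.691 (adjusted p = 0.0038). *PAP1* in water-treated plants thus ran opposite to the 9 fitted enzyme genes between these days.

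*TT8*, the bHLH partner of *PAP1*, had 355.1, 466.1, 219.2, 404.2 and 418.7 normalized counts in ethanol-treated plants, against 66.2, 24.0, 52.0, 22.6 and 56.8 in water-treated plants (log2 fold change 3.10 ± 0.295, adjusted p = 1.26e-05). It rose from 10 to 13 DAD under each treatment, by 4.73 ± 0.293 in ethanol-treated plants (adjusted p = 1.56e-08) and 2.01 ± 0.402 in water-treated plants (adjusted p = 0.000167). *PAP2* had 1.88 ± 0.242 at 13 DAD (adjusted p = 0.00012), while *TTG1*, the WD40 protein (0.10 ± 0.196), and *HY5*, a light-response bZIP factor (-0.22 ± 0.157), were not called.

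The repressors moved in both directions, with 4 of 7 called higher and 2 lower. The small MYB proteins *CPC* (2.48 ± 0.388, adjusted p = 0.000201) and *MYBL2* (1.60 ± 0.173, adjusted p = 1.12e-05) and *SPL9* (1.70 ± 0.321, adjusted p = 0.000877) were higher in ethanol-treated plants. *MYB4* was called at 1.32 ± 0.538 (adjusted p = 0.0771), and this call was lost without any of 6 single libraries, at values of 1.0 to 1.24. The LBD factors *LBD39* (-2.87 ± 0.509, adjusted p = 0.000649) and *LBD37* (-1.53 ± 0.313, adjusted p = 0.00156), repressors of anthocyanin synthesis that respond to nitrogen, were lower in ethanol-treated plants. *LBD39* had 1.34, 12.8, 2.63, 11.9 and 10.5 normalized counts in ethanol-treated plants, against 37.3, 116.3, 40.0, 66.2 and 33.6 in water-treated plants. Its highest water library was replicate 2, the lowest water library for 9 of the 10 enzyme genes, as for 21.5% of all genes tested. In the ethanol libraries the order was mixed. Replicate 1, the highest for 10 of the 10 enzyme genes (19.4% of all genes), held the lowest *LBD39* value, 1.34. Replicate 3, the lowest for 8 of the 10 (20.6% of all genes), also held little *LBD39*, 2.63, against 12.8 in replicate 2. A link between *LBD39* and the enzyme genes was not tested.

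The profile of each gene over the 35 libraries was compared with the mean of the standardized log2 levels of the 10. Among 15252 genes, 8 of the 10 ranked within the first 11, led by *LDOX* (Pearson's r = 0.993), but *CHIL* ranked 182 (0.848). Each of the 10 is part of this mean, which raises its rank. Against the mean of the other 9, and ranked among the genes outside the 10, *TT4*, *DFR*, *LDOX* and *UF3GT* came first, *F3H* and AT4G14090 second, *CHI* and *TT7* at 6, *AT5MAT* at 19 (0.919) and *CHIL* at 574 (0.815). The genes outside the 10 with the highest values were AT1G03495 (0.972), *UGT84A2* (0.972), *UGT78D2* (0.972), AT1G03940 (0.965), *TT8* (0.964), *TT19* (0.964), AT5G53140 (0.945), AT3G52920 (0.944), *PAL1* (0.940) and *GCL1* (0.938). Each single gene was closest to another of the 10, except *DFR*, closest to *TT19* (0.986), and *CHIL*, closest to AT3G52920 (0.918). These values describe libraries that share groups and rest on 13 DAD, since without its 10 libraries only 1 of these 10 outside genes, and by Spearman's rank correlation 2, stayed among the first 10.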

How the data were processed

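Shoot RNA was sequenced by Lasy-Seq. Per the labels and the methods, the authors trimmed reads with Trimmomatic, used HISAT2 for alignment against TAIR10, and counted forward reads by gene and strand in featureCounts. The deposited values are raw counts and normalized counts (a signal), the raw counts divided by one DESeq2 factor for each library. Columns without a sample numbered 0. Groups came from the labels.

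The 10 genes and the gene lists were chosen with earlier results of these data known. Raw counts were fitted with edgeR 4.0.16 in R 4.3.3 (filterByExpr, TMM, robust quasi-likelihood test), each comparison on its own libraries, with Benjamini-Hochberg adjustment over all genes and a call needed a false discovery rate under 0.1 together with a 2-fold change (log2 value of 1 or more). Settings tried otherwise were DESeq2 1.42.0, other scalings and filters, one fit of all groups, a replicate block, and leaving out each library. Ethanol and water libraries of the same number correlated above 0.1 in 1 of 5 pairs at 13 DAD, 1 of 5 at 10 DAD and 0 of 5 at 0 DAD. The main fits did not pair them, and so few pairs cannot show whether equal numbers shared a tray or batch. The fit was tested on simulated data.

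The genes named outside the 10 were those called between treatments, with *FLS1*, *TT19*, *PAP1* and *TT8* always given, and the 10 of highest correlation among genes with a mean of at least 20 normalized counts, on log2(value + 1). *C4H*, *DTX35*, *BGLU10*, *TTG1* and *HY5* were named after their values were seen. Sequences and positions came from RefSeq's TAIR10.1, in which 60 of 60 gene positions given by the study overlapped the same gene. BLAST 2.17.0 was used to look for copies of 95% identity over 100 bases.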

Additional observations from a re-analysis of the deposited data

Results flagged for a closer look

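*CHI* had 1 library away from the other 4 in 3 of its groups, always the lowest: 82.6 normalized counts in ethanol replicate 4 at 0 DAD, 90.4 in water replicate 5 at 0 DAD and 82.1 in water replicate 5 at 10 DAD. No other flag arose in the 70 sets of gene and group examined, and chance flags about 1 in 20.

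Outside the 10 enzyme genes, 17 of the 39 pathway genes fitted changed differently from 10 to 13 DAD in ethanol-treated and water-treated plants. This rests on the edgeR test of the difference itself, given as log2 values of the ethanol step minus the water step. Of the 39, 15 were called higher, 2 lower and 22 not at all, against 8.61% of all genes called higher and 4.06% lower. The 17 genes follow by list. At the phenylpropanoid entry they were *4CL3* at 3.0, *PAL2* at 1.97, *PAL1* at 1.26 and *PAL4* at -1.43. Of the flavonol branch they were *UGT78D1* at 2.36 and *UGT78D2* at 1.52. Of the steps beside anthocyanin synthesis they were AT1G03495 at 3.02, AT1G03940 at 2.0, *TT19* at 1.53, *UGT84A2* at 1.41 and *SCPL10* at 1.39. Of the regulators they were *CPC* at 3.90, *PAP1* at 3.27, *TT8* at 2.67, *MYBL2* at 1.51, *SPL9* at 1.39 and *LBD39* at -2.76. The value of *CPC* rested on few reads, 2 to 12 in water-treated libraries at 13 DAD and 3 to 16 in ethanol-treated libraries at 10 DAD. It also held a treatment difference at 10 DAD, a log2 fold change of -1.44 ± 0.493 that was not called. The call for *TT19* was lost at 1.21 without water replicate 4 of 10 DAD and at 1.42 without ethanol replicate 1 of 13 DAD.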

How the results depend on the processing

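The median log2 fold change of the enzyme genes fitted moved by more than the spread between libraries in 1 case. For 10 over 0 DAD in ethanol-treated plants, where 9 of the 10 were fitted, it was 0.86, and 1.12 with scaling by library size only. The list of genes most like the 10 held 2 of its 10 genes by Spearman correlation and 1 without the 10 libraries of 13 DAD. The counts of other pathway genes called stayed within 1.5 times in every setting. With a replicate block the median at 13 DAD was 3.02 in place of 2.97 and 19 in place of 20 other pathway genes were called, and the block ended the call of *MYB4* there. Of 3613 single-gene values under other settings, 3545 kept their direction and call, 57 lost the call, 11 gained one and 0 turned round. Depth limits *AT5MAT* most, which could be fitted only in comparisons that used the ethanol-treated libraries of 13 DAD.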
